A study of Mus musculus with 6 samples.

Results

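Among the mouse miRNAs on a PCR array, mmu-miR-320, mmu-miR-1981 and mmu-miR-1839-5p (below without the mmu- prefix) are made from precursors that are known not to need the cut by Drosha. They were picked by name, without the star strands, from a table of 709 miRNA assays, and 3 of 3 had a value in every sample. The array was run on RNA of osteoclasts, the cells that resorb bone, sorted from bone marrow with magnetic beads as OSCAR+CTR+ cells. In the labels, 3 samples are OCmiR-Intact (control mice whose osteoclast miRNAs are intact, here "intact") and 3 are OCmiR-KD (mice with osteoclast-miRNA knockdown, here "knockdown" or KD). The labels name no gene, allele, promoter, strain, age or agent for the knockdown, so the step of miRNA production that it touches is not known here. The design text says that equal amounts of RNA of 3 mice per group were pooled, yet each group holds 3 samples, so the p-values measure the spread between samples that may be technical repeats.

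Most miRNAs are cut out of a long transcript in successive steps. In the nucleus Drosha and its partner Dgcr8 free a hairpin, and in the cytoplasm Dicer trims the hairpin to a duplex, of which 1 strand guides an Argonaute protein to messenger RNAs. A few miRNAs skip the nuclear cut and still need Dicer. The hairpin of miR-320 is itself the start of a short capped transcript. A mirtron, the class to which miR-1981 is counted, is a whole short intron that the spliceosome releases and that then folds into a hairpin. The hairpin of miR-1839 has been described as part of a snoRNA-like RNA. Cells that lack Drosha or Dgcr8 but keep Dicer are known to lose most miRNAs while miRNAs of these kinds persist.

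The sequences of the assays, as deposited, show that the 3 members differ in their seeds. The seed, bases 2 to 8 from the 5′ end, which sets most of the target choice, is in capitals:
miR-320: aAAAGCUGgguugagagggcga
miR-1981: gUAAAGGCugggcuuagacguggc
miR-1839-5p: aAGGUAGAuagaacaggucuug
No seed is shared between the 3. On the array the seed of miR-1981 recurs in 1 other assay, miR-1971, which had a value in 0 of 6 samples, and the seeds of miR-320 and miR-1839-5p recur in 0 others. Bases 2 to 7 of miR-1839-5p (AGGUAG) are the letters that let-7a carries at bases 3 to 8, so 6 bases of its seed are let-7 seed letters moved by 1 base. The last base of its seed, A, differs from the next base of let-7a, U. The nearest measured sequences are 9 edits (substitutions, insertions or deletions) away from each member, namely miR-106b and miR-1981 for miR-320, miR-320 for miR-1981 and miR-103 for miR-1839-5p. With 24 bases miR-1981 is 1 of 2 measured assays of that length, while 61 of the 95 measured assays have 22 bases, like the other members.

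The hairpins of miR-1981 and miR-1839, from RefSeq (GRCm38.p6), show how the arms sit in their precursors. Capitals mark the assayed arms:
Mir1981: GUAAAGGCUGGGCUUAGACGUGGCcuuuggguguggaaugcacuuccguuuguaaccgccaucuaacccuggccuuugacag
Mir1839: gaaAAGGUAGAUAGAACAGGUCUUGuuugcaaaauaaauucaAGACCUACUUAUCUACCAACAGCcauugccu
Mir1981 (chr1:184822407-184822488, minus strand, 82 bases) lies inside the span of the protein-coding gene Mtarc2. It starts with GU and ends with AG, the letters at the ends of most introns, and miR-1981 begins at its base 1. Of the 1005 mouse hairpins in the RefSeq table, read 5′ to 3′ on their own strand, 30 (2.99%) start with GU and end with AG, and in 13 of the 814 with an annotated 5′ arm (1.60%) that arm also begins at base 1. Mir1839 (chr7:81529916-81529988, plus strand, 73 bases) lies inside the span of the long non-coding RNA gene 2900076A07Rik. It starts with GA and ends with CU, and miR-1839-5p begins at base 4, against a median of base 7 over all annotated 5′ arms. Mir320 is on chromosome 14, inside no other gene, and its nearest neighbour is Polr3d, a gene for an RNA polymerase III subunit, at 38 bases. Hairpin ends are as annotated, not as measured here, and exons and introns are not in the table used.

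Each assay gives a threshold cycle (Ct), the PCR cycle at which fluorescence passes a set limit, so 1 cycle less stands for about 2-fold more template. The level used here is minus delta Ct, the log2 amount relative to U6, a small nuclear RNA read on the same plate in the same sample. Of the 709 assays, 95 (13.4%) had values in all 6 samples and the other 614 were Null in all 6. The Ct of U6 of plate 1 was 29.3, 29.6 and 30.3 in intact samples, and in knockdown samples it was 31.1, 30.6 and 29.3. The median Ct of the 95 assays was 24.7 to 25.9 cycles in intact and 29.3 to 31.3 cycles in knockdown samples. The array reads no messenger RNA, so Oscar and the calcitonin receptor could not be checked. Of 7 myeloid marker miRNAs 4 had values, and so did 5 of 8 epithelial, 4 of 5 stromal, 4 of 4 lymphoid, 3 of 3 erythroid, 2 of 4 muscle and 1 of 1 liver markers. The median level of the myeloid markers was 4.43 to 5.46 in intact and -2.10 to 1.01 in knockdown samples, and that of the epithelial markers was 5.98 to 7.73 and -0.48 to 0.46. The stromal markers stood at 5.48 to 6.12 and -0.19 to 0.20, the lymphoid ones at 3.79 to 4.44 and -0.22 to 0.29, and the liver miRNA miR-122 at 6.68 to 7.03 and -1.90 to 0.82. The erythroid markers stood at 1.83 to 2.30 and -0.96 to 0.68, and the muscle markers at 2.06 to 3.63 and -1.10 to 0.54. For each of the 7 lists every knockdown median lay below every intact median, relative to U6 and with no test. Among all single assays the same was so for 78 of 95 (82.1%). The medians hide single markers: the erythroid miR-486 differed by 0.49 log2 units, while 92 of the 95 assays differed by less than 0. The part of other cells in the results was not tested, and in bulk RNA fewer cells of a type and less RNA per cell cannot be told apart.

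A property of the deposited knockdown values limits every difference between the groups, those of the markers above included. Expressed as linear multiples of U6 of plate 1, the 3 knockdown values of miR-320 were 0.606, 1.22 and 1.17, those of miR-1981 were 1.30, 0.848 and 0.848, and those of miR-1839-5p were 0.677, 1.95 and 0.369. For each of the 3 miRNAs these average to 1 within 0.001. The same holds for 88 of the 95 assays in knockdown and for 0 of 95 in intact samples, and it holds for 10 of 10 on plate 2 although delta Ct there was taken against U6 of plate 2. The linear knockdown mean of each member is therefore no free measurement. A lower level in knockdown largely restates how far the deposited intact values lie above U6. Knockdown samples 2 and 3 of miR-1981 are equal on this scale to the last deposited digit, as they are in 7 of the 95 assays (7.37%). Relative to U6, the 7 assays that escape this pattern differed between the groups by -0.33 to 0.05 log2 units. Of them, 0 passed the test relative to U6 used below. Against the median of the 95 assays in the same sample, also tested below, each of the 7 was called higher, by 4.14 (miR-210) to 4.52 (miR-103) log2 units.

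**Figure D1:**
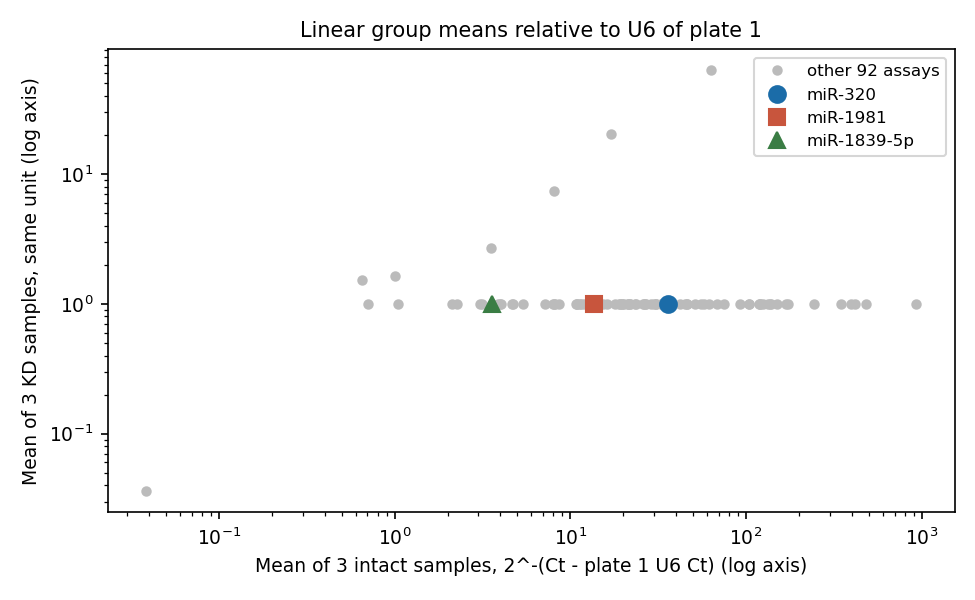
Mean of the 3 intact samples (x axis) against mean of the 3 knockdown samples (y axis) for each of the 95 measured assays, as 2 to the power of minus the Ct difference to U6 of plate 1, on log axes. The 3 named miRNAs lie with 85 others on the horizontal line at a knockdown mean of 1, and they are spread along the x axis at 36.1 for miR-320, 13.6 for miR-1981 and 3.57 for miR-1839-5p.

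Relative to U6, all 3 miRNAs were lower in the knockdown samples, by 37.7-fold for miR-320, 10.6-fold for miR-1981 and 3.23-fold for miR-1839-5p, and each passed the test. The comparison was made with limma over all 95 assays with Benjamini-Hochberg adjustment and a threshold of 0.05. It called 80 of the 95 assays lower (84.2%) and 0 higher, with 0 higher also at an unadjusted p under 0.05, so that 3 of 3 members is close to the share among all assays. Each of the 80 belongs to the 88 assays whose knockdown mean is 1. The median difference was -3.41 log2 units over the 3 members and -4.54 over the 95 assays. By plate it was -4.59 over the 85 assays of plate 1, which holds miR-320. Over the 10 assays of plate 2, which holds miR-1981 and miR-1839-5p, it was -3.64. The test assumes independent samples, and 3 values held to a common mean are not independent.

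miR-320, linked in other tissues to the control of glycolysis, had Ct values of 24.0, 24.6 and 25.1 in the intact samples and 31.8, 30.3 and 29.1 in the knockdown samples. Its levels were 5.27, 4.98 and 5.25 in intact and -0.72, 0.29 and 0.23 in knockdown samples. The intact samples lie close together, the knockdown samples lie around U6, and the groups do not overlap, as was so for 78 of the 95 assays (82.1%). The means were 5.17 ± 0.16 and -0.07 ± 0.57 (SD, n = 3 each), a difference of -5.24 log2 units (SE 0.51, 95% interval -6.41 to -4.06, limma adjusted p = 3.93e-05). The SD among intact samples was the 13th smallest of the 95, against a median SD of 0.48. After quantile normalization the difference was -0.66 and did not pass (limma adjusted p = 0.548). Taken on Ct with no reference, it was -5.84.

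miR-1981, the mirtron, had Ct values of 26.4, 25.1 and 26.9 in the intact samples and 30.7, 30.8 and 29.6 in the knockdown samples. Its levels were 2.89, 4.50 and 3.08 in intact and 0.45, -0.85 and 0.64 in knockdown samples. Intact sample 2 stands above the other intact samples, and the groups do not overlap. The means were 3.49 ± 0.88 and 0.08 ± 0.81 (SD, n = 3 each), a difference of -3.41 (SE 0.67, 95% interval -4.97 to -1.85, limma adjusted p = 0.00175), which turned to 0.98 after quantile normalization without passing. With no reference it was -4.26, and against the unnamed control wells it was -4.10.

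miR-1839-5p, from the snoRNA-like hairpin, had Ct values of 28.5, 28.3 and 27.6 in the intact samples and 31.7, 29.6 and 30.8 in the knockdown samples. Its levels were 0.74, 1.31 and 2.33 in intact and -0.50, 0.36 and -0.56 in knockdown samples. Intact sample 3 is the highest, and intact sample 1 lies only 0.39 above knockdown sample 2. The means were 1.46 ± 0.80 and -0.23 ± 0.51 (SD, n = 3 each), a difference of -1.69 (SE 0.59, 95% interval -3.08 to -0.31, limma adjusted p = 0.0276), which turned to 1.88 after quantile normalization without passing. This call is the least firm of the 3. It was lost without intact sample 2 (-1.77, limma adjusted p = 0.0592), intact sample 3 (-1.26, 0.0747) or knockdown sample 1 (-1.56, 0.0790) and in limma with a variance trend (0.0607). Against U6 of plate 1 the difference was -1.93 (limma adjusted p = 0.0490), and there the groups overlap, with knockdown sample 2 at 0.97 and intact sample 1 at 0.77. U6 of plate 2 minus U6 of plate 1 was -0.61 cycles in knockdown sample 2 and 0.88 cycles in knockdown sample 3. With no reference the difference was -2.54, and against the control wells it was -2.38.

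**Figure D2:**
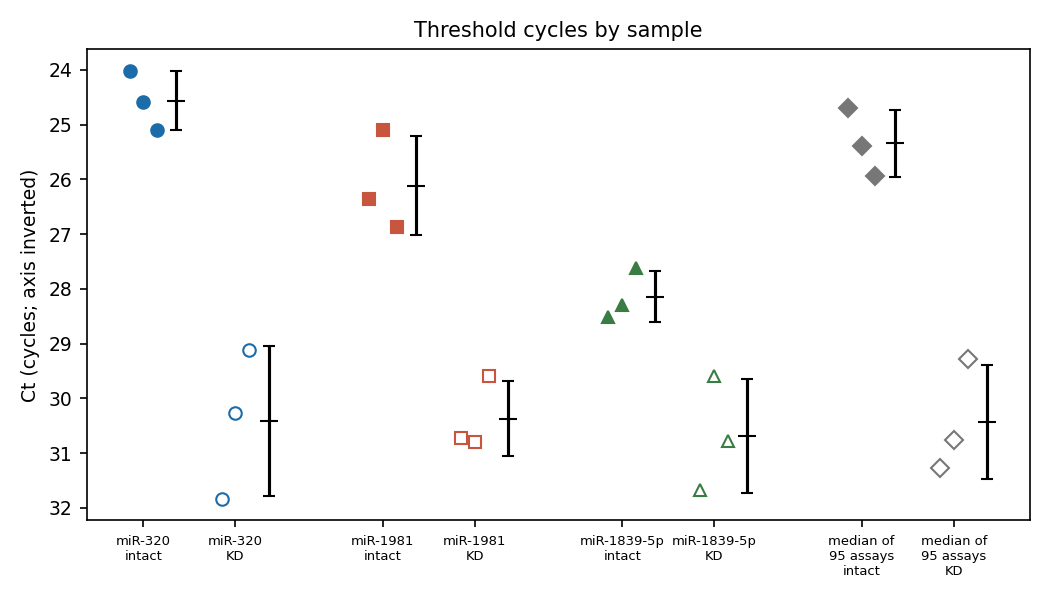
Threshold cycles of the 3 miRNAs and the median Ct of the 95 measured assays in each sample, with the axis inverted so that more template lies higher. Filled symbols are intact and open symbols knockdown samples, and bars give mean and SD (n = 3 each). The intact means run from 24.6 cycles for miR-320 to 28.1 cycles for miR-1839-5p, while the knockdown means of all 3 lie at 30.4 to 30.7 cycles.

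**Figure D3:**
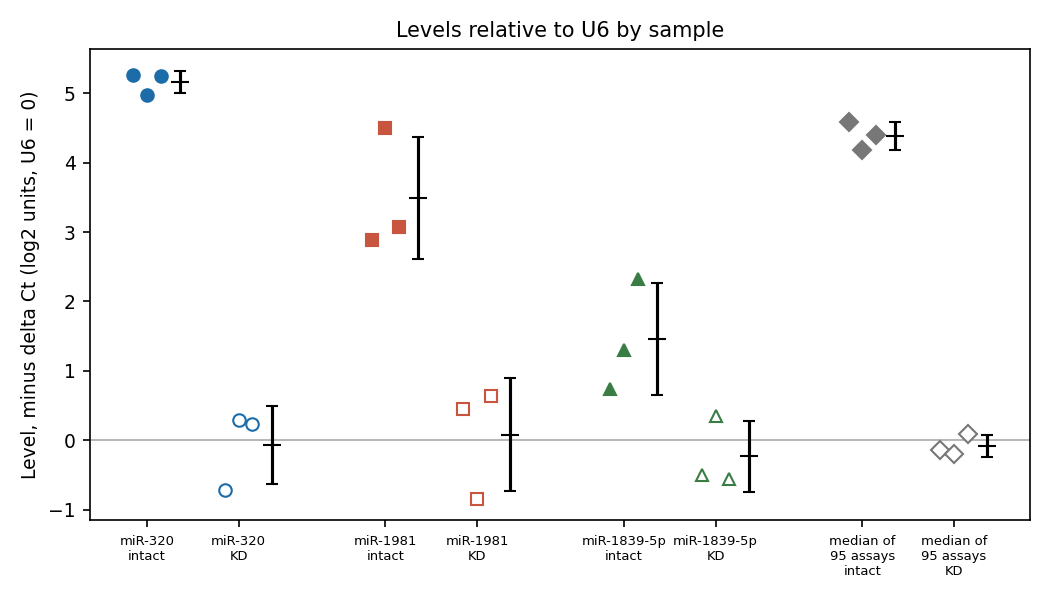
Levels of the same miRNAs and the median over the 95 assays relative to U6 (minus delta Ct, log2 units, U6 at 0), by sample, with mean and SD (n = 3 each). Filled symbols (intact) lie above open symbols (knockdown) for each miRNA relative to U6. For miR-1981 and miR-1839-5p the sign turns after quantile normalization or against the sample median.

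In the authors' deposited table the folds of intact over knockdown were 37.687 for miR-320, 10.629 for miR-1981 and 3.231 for miR-1839-5p, against a median of 23.3 over the 95 assays. In the order of falls relative to U6, miR-320 is 36th, miR-1981 is 67th and miR-1839-5p is 82nd of 95. The order by deposited intact level is much the same, at ranks 30, 66 and 86. Over the 88 assays with a knockdown mean of 1, difference and intact level share the intact values and have r = -0.98. In the order of falls, miR-382 (-5.26) and miR-215 (-5.20) flank miR-320, miR-30c (-3.42) and miR-140* (-3.33) flank miR-1981, and miR-340-5p (-1.88) and miR-184 (-1.63) flank miR-1839-5p. Neighbours in a sorted list are close by definition, and these gaps are below the members' SE. Of the 10 measured assays of plate 2, which holds miR-1981 and miR-1839-5p, these are 6th and last by size of fall.

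**Figure D4:**
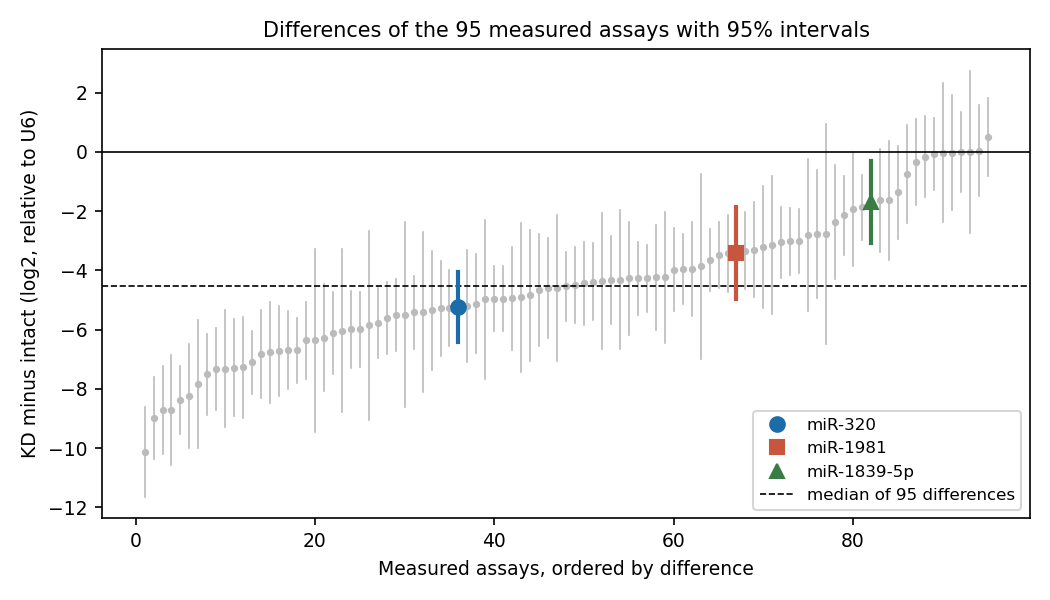
Knockdown minus intact in log2 units relative to U6 for the 95 measured assays, ordered by size, with 95% intervals from limma. The dashed line is the median difference, -4.54. miR-320 at -5.24 lies below it, and miR-1981 at -3.41 and miR-1839-5p at -1.69 lie above it, both of which have the opposite sign after quantile normalization, where miR-320 is at -0.66 and none of the 3 passes.

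The second comparison asked where each miRNA stands among the other miRNAs of the same sample. The median level of the 95 assays was 4.58, 4.18 and 4.41 in the intact and -0.14, -0.20 and 0.10 in the knockdown samples. Its difference of -4.47 has an exact two-sided permutation p = 0.1, the smallest that 3 against 3 allows. Setting each sample's median to 0 removes this shift. On that scale 21 of 95 assays (22.1%) were called lower and 20 (21.1%) higher in knockdown samples (limma, adjusted p under 0.05). Of the 41 calls, 34 belong to assays with a linear knockdown mean of 1. The 7 assays without that mean were all called higher. The total of 41 calls dropped to 24 without intact sample 1, to 24 without intact sample 3 and to 26 without knockdown sample 2.

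miR-320 lay above the sample median by 0.69, 0.80 and 0.85 in the intact samples and by -0.58, 0.49 and 0.13 in the knockdown samples. The groups do not overlap, as in 27 of 95 assays in this direction (28.4%), but the difference of -0.77 (SE 0.49, 95% interval -1.91 to 0.38) did not pass (limma adjusted p = 0.271). miR-1981 lay at -1.69, 0.32 and -1.33 in intact and at 0.58, -0.65 and 0.55 in knockdown samples. These groups overlap, and the difference of 1.06 (SE 0.69, 95% interval -0.56 to 2.68) did not pass (limma adjusted p = 0.279). It was 0.25 with the median of the same plate as centre and 0.66 to 1.67 when 1 sample was left out. Neither miRNA was thus set apart from the median in these samples, and the intervals leave room for a change of either sign.

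miR-1839-5p lay well under the sample median in intact cells, at -3.84, -2.88 and -2.08, and near it in knockdown cells, at -0.36, 0.56 and -0.65. The groups do not overlap, as in 24 of 95 assays in this direction (25.3%). The difference of 2.78 (SE 0.63, 95% interval 1.31 to 4.25) passed (limma adjusted p = 0.0123). A centre taken over the same plate, which rests on 10 assays, left 1.96 and no call (limma adjusted p = 0.0981). For 88 of the 95 assays, miR-1839-5p included, the linear knockdown mean is 1 relative to U6 of plate 1. The rise of a miRNA with a low intact level against the median is therefore no free result. The log2 values are not fixed exactly by that mean, and the step that set it is not known. Among all 95 assays miR-1839-5p ranked 87th, 83rd and 79th by level in the intact and 67th, 24th and 72nd in the knockdown samples.

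**Figure D5:**
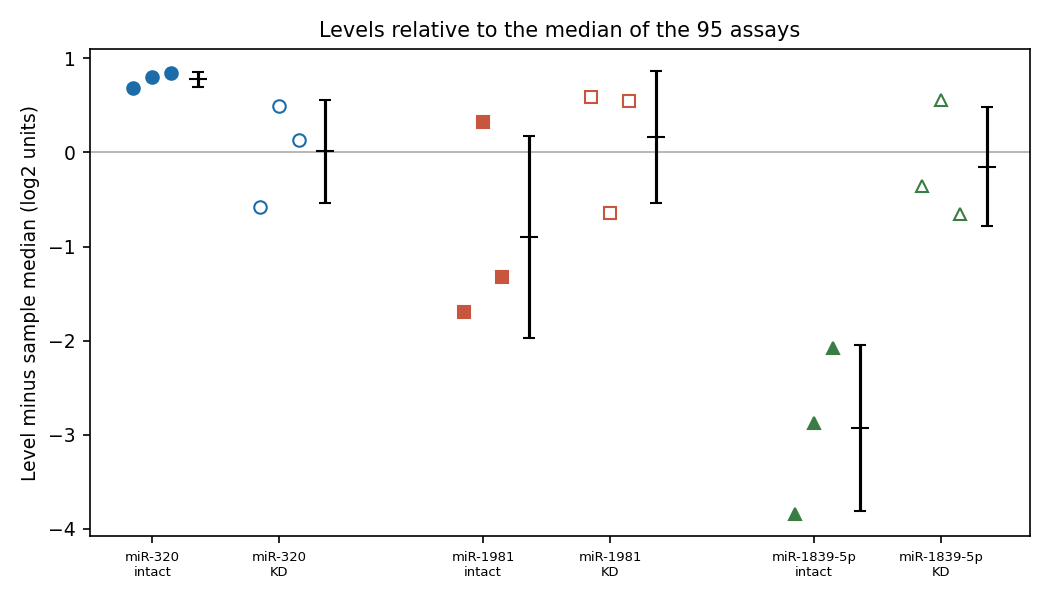
Level of each of the 3 miRNAs minus the median level of the 95 assays in the same sample (log2 units), with mean and SD (n = 3 each). Filled symbols are intact and open symbols knockdown samples. miR-320 lies at 0.69 to 0.85 in intact samples, miR-1839-5p at -3.84 to -2.08, and all 9 knockdown values of the 3 miRNAs lie between -0.65 and 0.58.

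The 3 miRNAs were also set against each other within samples. miR-320 exceeded miR-1839-5p by 4.53, 3.68 and 2.92 log2 units in the intact samples and by -0.22, -0.07 and 0.79 in the knockdown samples. The groups do not overlap, and the gap was smaller by 3.54 log2 units in knockdown (exact two-sided permutation p = 0.1, 0.3 adjusted over the 3 pairs). miR-320 exceeded miR-1981 by 2.38, 0.48 and 2.17 in intact and by -1.17, 1.14 and -0.41 in knockdown samples, with overlap (exact permutation p = 0.2, adjusted 0.3). miR-1981 exceeded miR-1839-5p by 2.15, 3.20 and 0.75 in intact and by 0.95, -1.20 and 1.20 in knockdown samples, again with overlap (exact permutation p = 0.3, adjusted 0.3). With 3 samples a group no pair can go below 0.1. The linear knockdown mean of each member is 1 relative to U6 of plate 1. That limits the mean knockdown gaps but does not fix them in log2 units. They were 0.17, -0.15 and 0.31 in the order above, against 3.71, 1.68 and 2.03 in intact samples. The changes therefore largely restate the intact gaps, and the tests give no free result. No share over other pairs of assays was taken. Primers differ between assays, so these gaps compare readings and not abundances.

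By root mean square distance of level over the 6 samples, the assays most like miR-320 were miR-382 (0.31 log2 units), miR-24 (0.41) and miR-199a-3p (0.41), of which miR-24 and miR-199a-3p hold the same deposited values. Those most like miR-1981 were miR-30c (0.47), miR-22 (0.60) and miR-92a (0.76). Those most like miR-1839-5p were miR-361 (0.72), miR-451 (0.76) and miR-340-5p (0.77). The knockdown Ct values of miR-361 (31.278, 29.772 and 30.761) are the same as those deposited for miR-99b* on plate 2, while their intact values differ. None of these is among the Drosha-independent miRNAs looked up here. miR-451 is the counterpart case, a miRNA cut by Drosha and then by Argonaute2 in place of Dicer. Its levels were 1.84, 1.83 and 2.30 in intact and -0.96, -0.18 and 0.68 in knockdown samples, a difference of -2.14 (SE 0.57, limma adjusted p = 0.00798), between those of miR-1981 and miR-1839-5p. Against the sample median it was 2.33 (limma adjusted p = 0.0135), with the sign of miR-1839-5p. The let-7 and miR-98 assays that carry bases 2 to 7 of miR-1839-5p moved by 1 base numbered 10 with miR-1961. The 9 with values differed by -8.99 (let-7i) to -3.21 (miR-98). Each fell by more than miR-1839-5p, as did 81 of the other measured assays in all, these 9 included, while 13 did not.

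The 4 other Drosha-independent miRNAs that were looked up on the array gave no value. The array was not searched for further ones. miR-484, which like miR-320 starts at a capped transcript, and the mirtrons miR-877, miR-1224 and miR-702 were Null in 6 of 6 samples, and so were the other arms miR-877* and miR-1839-3p. Thus 3 of 7 miRNAs, or 3 of 9 assays with these arms, were measured, against 95 of 709 assays on the whole array. The 7 were listed with earlier results of these data known, so this share is no result about the class. miR-484 is on plate 1, where 85 of 380 assays had values, and the rest are on plate 2, where 10 of 329 had. Their deposited sequences, with the seed in capitals, are given because a Null rests on these primers:
miR-484: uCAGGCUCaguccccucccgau
miR-877: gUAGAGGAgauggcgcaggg
miR-1224: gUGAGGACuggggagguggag
miR-702: uGCCCACCcuuuaccccgcuc
These are richer in G and C (63.6% to 66.7%) than miR-320 (54.5%), miR-1981 (58.3%) and miR-1839-5p (40.9%), with a median of 47.6% over the measured assays. Of the Null arms, miR-877* stands at 59.1% and miR-1839-3p at 43.5%. Whether base content bears on a Null was not tested. The hairpins of miR-877 and miR-1224 start with GU and end with AG, and both miRNAs begin at base 1, as miR-1981 does. The annotated hairpin of miR-702 starts with CG and ends with CC, and its assayed arm begins at base 88. No source used here gives the rule for a Null, so a Null sets no upper limit on a level.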

How the data were processed

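The 3 members and all lists were chosen with earlier results of these data known. QuantiMir reverse transcription was followed by 40 cycles of SYBR Green PCR on a ViiA7, per the labels' protocols. The authors deposited Ct values (717 wells), delta Ct values on a log2 scale (709 assays, U6 subtracted) and folds of intact over knockdown, per the file headers. Ct minus delta Ct was checked to be 1 constant per sample and plate, equal to 1 well per plate. IDs of 48 wells, altered to scientific notation, were restored. Levels are minus delta Ct. All 95 assays with values met a Ct under 35 in at least 3 samples. Groups were compared with limma 3.58.1 (R 4.3.3; lmFit, eBayes, two-sided, no covariate), tested on simulated data, and single values with exact permutation tests. A PCR array has no read depth: 3 samples a group limit the precision. Named besides the members were other Drosha-independent assays, miR-451, the 3 assays nearest each member in level and neighbours in the order of falls; the let-7 and seed partners were chosen after their values were seen. Alternatives changed reference, centre, filter, variance model, block and samples. No source used here gives the Ct threshold, Null rule or PCR efficiency.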

Additional observations from a re-analysis of the deposited data

How the results depend on the processing

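Over the 6 member differences and the 2 counts of calls, 84 of 96 alternative values kept their direction and side of the threshold (counts: within 1.5 times). The 34 alternatives of the median and the 3 pair differences kept their direction, but their permutation tests cannot reach 0.05 and show nothing of calls. These alternatives reuse the knockdown values that are held to a common mean, so the kept direction is no independent support either. Quantile normalization, which forces equal distributions, left -0.66 for miR-320 relative to U6 and turned miR-1981 to 0.98 and miR-1839-5p to 1.88, none of them passing. It left 13 calls (5 lower, 8 higher) in place of 80. With a variance trend miR-1839-5p stayed at -1.69 but did not pass, and centred on its plate it was at 1.96 without a call. Leaving out 1 sample gave -2.05 to -1.26 for miR-1839-5p relative to U6 and 24 to 43 calls against the sample median. The causes were not tested. Whether the replicate numbers pair the samples is not known. The deviations of equal-numbered samples correlate at 0.02, 0.10 and 0.08 over the 95 assays, and those of unequal-numbered samples at -0.09 to 0.03. The knockdown values of most assays are held to a common mean, so these correlations cannot decide on a pairing. The replicate block changed no call of a member (limma adjusted p = 0.0418 for miR-1839-5p relative to U6).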
